A study of Mus musculus with 6 samples.

Results

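Aminoacyl-tRNA synthetase transcripts were examined in 6 RNA sequencing libraries labelled as heart tissue, 3 from mice given L-proline and 3 from mice given PBS. The genes were a named set of 36, all of them present among the 14408 gene symbols of the deposited expression table: 20 that encode cytosolic enzymes and 16, with symbols ending in 2, that encode mitochondrial enzymes. Of the cytosolic symbols, tryptophanyl-tRNA synthetase stands in the table as Wars1. All mice were male C57BL/6J animals, 8 weeks old at the start. Both groups first had 8 to 12 weeks of a high-fat diet with L-NAME, which blocks nitric oxide synthesis, at 0.5 g/L, the induction used here for HFpEF, a form of heart failure in which the ejection fraction is kept. The L-proline group then received 300 mg/kg per day by intraperitoneal injection for 4 to 8 weeks, and the other group received PBS over the same time. A group without the induction was not analysed here. The labels give the durations as ranges and do not say whether each library came from its own animal, so the spread between libraries may be partly technical.

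An aminoacyl-tRNA synthetase joins one amino acid to the tRNAs that carry its anticodon, the step that sets the genetic code during translation. Mammals use one set of these enzymes in the cytosol and a second set, also encoded in the nucleus, in mitochondria, while the glycyl and lysyl enzymes of both compartments come from single genes, Gars and Kars. When uncharged tRNA or other stress activates the eIF2α kinases, the transcription factor ATF4 is made, and many cytosolic synthetase genes are known ATF4 targets, along with genes for amino acid synthesis and transport.

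Expression was deposited as FPKM (fragments scaled to gene length and to the library's total), a scale meant to let genes of different length be compared. Such a comparison rests on the gene length used. Library totals recovered from the FPKM values ran from 34990473 to 36778787 fragments in L-proline and from 35925065 to 37498030 in PBS. The label of left ventricle was checked against markers, and the libraries did not show the profile of that tissue. Most defining transcripts of cardiomyocytes were near 0 or had no row, while many fibroblast transcripts and Acta2 were abundant. Of 13 cardiomyocyte markers, 7 were listed and 2, Tnnt2 and Tnnc1, averaged at least 1 FPKM over the 6 libraries. The summed level of the listed cardiomyocyte markers was 19.1 to 23.6 FPKM in L-proline and 36.7 to 40.2 FPKM in PBS, and Myh7 was at 0 in the PBS libraries. Nearly all of this sum was Tnnt2 and Tnnc1, and its difference between groups lay in Tnnt2. The log2 fold change was -1.09 ± 0.09 for Tnnt2 (SE; limma, adjusted p = 0.000326). For Tnnc1, which did not pass, it was 0.08 ± 0.15 (SE; limma, adjusted p = 0.739). Myh7, Myl2, Ryr2, Ttn and Tnni3, which encode contractile or calcium-handling proteins of heart muscle, were at most 0.212 FPKM in each of the 6 libraries, and Myh6, Actc1, Myl3, Pln, Mybpc3 and Actn2 had no row. Fibroblast markers summed to 6486 to 6830.1 FPKM in L-proline and 6223 to 6475 FPKM in PBS (9 of 12 listed). Single members moved in both directions within this sum. At the limma threshold given below 3 of the 9 rose and 2 fell, against 7.5% and 12.1% of all tested genes. Col3a1 averaged 1824 FPKM in L-proline and 1226 FPKM in PBS, and Vim 2328 FPKM in L-proline and 2871 FPKM in PBS. Lum, Thy1 and Tcf21 had no row. Smooth muscle and pericyte markers summed to 804 to 997 FPKM in L-proline and 897 to 1009 FPKM in PBS (6 of 8 listed), most of it from Acta2, which averaged 826 ± 86.0 FPKM in L-proline and 850.2 ± 51.6 FPKM in PBS (SD, n = 3 each). The other listed members averaged less over the 6 libraries: Tagln 74.2, Cspg4 4.06, Cnn1 3.09, Rgs5 0.0762 and Myh11 0.0227 FPKM. Kcnj8 and Abcc9 had no row. Endothelial markers did not exceed a sum of 1.04 FPKM in any library (5 of 8 listed), and macrophage markers summed to 5.27 to 5.66 FPKM in L-proline against 2.74 to 3.82 FPKM in PBS (4 of 10 listed). Nearly all of the macrophage sum was Cd68, at 5.19 ± 0.297 FPKM in L-proline and 3.17 ± 0.536 FPKM in PBS (SD, n = 3 each). Csf1r, Cd163 and Mrc1 averaged at most 0.167 FPKM over the 6 libraries. Adgre1, C1qa, C1qb, C1qc, Itgam and Ptprc had no row. The part of these marker levels in the results below was not tested.

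Transcripts of 10 of the 20 cytosolic synthetases rose with L-proline: Aars, Cars, Gars, Iars, Lars, Mars1, Nars, Sars, Tars and Yars. The increases ran from 0.44 to 1.26 on the log2(FPKM + 1) scale, the largest being that of Aars, whose mean level was 2.45 times that in PBS. None of the 20 fell (limma, Benjamini-Hochberg adjusted p under 0.05 over 10500 genes with a mean of at least 1 FPKM); at an unadjusted p under 0.05 12 were higher and 2 lower, and limma-voom on recovered fragments called 10 higher and 0 lower. Among all tested genes the share called was 19.6%, with 7.5% called higher and 12.1% called lower. The median log2 fold change of the 20 genes was 0.37, against -0.06 over all tested genes. In bulk RNA, a change in the number of cells of a type and a change in RNA per cell cannot be told apart.

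Alanyl-tRNA synthetase (Aars) stood at 46.1, 47.5 and 55.3 FPKM in L-proline 1, 2 and 3, against 18.5, 23.0 and 19.2 FPKM in PBS 1, 2 and 3. The lowest L-proline library was thus above the highest PBS library, and the log2 fold change was 1.26 ± 0.11 (SE; limma, adjusted p = 0.000417). These levels rest on 10749, 10552 and 12903 fragments in L-proline and 4393, 5250 and 4483 in PBS. Cysteinyl-tRNA synthetase (Cars) stood at 26.0, 24.9 and 28.7 FPKM in L-proline and 13.0, 14.2 and 13.6 FPKM in PBS. Its mean was 1.95 times that in PBS, with a difference of 0.92 ± 0.08 on the log2 scale (limma, adjusted p = 0.000458). Asparaginyl-tRNA synthetase (Nars), among the most abundant of the set, stood at 118, 115 and 110.1 FPKM in L-proline and 63.0, 70.2 and 65.6 FPKM in PBS. The groups were far apart relative to their spread, with a difference of 0.78 ± 0.07 on the log2 scale (limma, adjusted p = 0.000458). Asparagine synthetase (Asns), which makes the amino acid that Nars uses, stood at 44.3, 36.9 and 48.8 FPKM in L-proline and 13.4, 14.5 and 12.8 FPKM in PBS, an increase of 1.60 ± 0.11 on the log2 scale (limma, adjusted p = 0.000187).

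The enzymes for the branched amino acids isoleucine and leucine moved by similar amounts. Iars, the isoleucyl enzyme, stood at 30.6, 30.5 and 30.5 FPKM in L-proline and 18.6, 20.6 and 19.7 FPKM in PBS. The L-proline libraries were nearly equal to each other and all above PBS, with a difference of 0.62 ± 0.07 on the log2 scale (limma, adjusted p = 0.00118). Lars, the leucyl enzyme, stood at 48.4, 45.8 and 47.8 FPKM in L-proline and 32.6, 33.0 and 32.1 FPKM in PBS. Its log2 fold change was 0.52 ± 0.06 (limma, adjusted p = 0.00157). Vars, the valyl enzyme and the third for a branched amino acid, stood at 23.2, 26.6 and 28.2 FPKM in L-proline and 21.8, 26.1 and 23.0 FPKM in PBS. Its groups overlapped, and it did not pass (log2 fold change 0.13 ± 0.10; limma, adjusted p = 0.376). Threonyl-tRNA synthetase (Tars) stood at 78.3, 83.1 and 84.8 FPKM in L-proline and 49.2, 57.7 and 51.6 FPKM in PBS. It rose by 0.63 ± 0.08 on the log2 scale (limma, adjusted p = 0.00176), while the related gene Tarsl2, a further threonyl synthetase gene outside the named set, fell to 5.60 ± 0.364 FPKM in L-proline, against 7.98 ± 0.733 FPKM in PBS (SD, n = 3 each; limma, adjusted p = 0.0143).

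Of the 2 genes that supply both compartments, one passed the threshold and one did not. Gars, the glycyl enzyme, stood at 108, 105 and 115 FPKM in L-proline and 70.9, 81.2 and 74.3 FPKM in PBS, which made it the most abundant synthetase transcript in PBS. It rose by 0.53 ± 0.08 on the log2 scale (limma, adjusted p = 0.00304). Kars, the lysyl enzyme, stood at 67.8, 76.9 and 72.9 FPKM in L-proline and 63.6, 72.8 and 67.8 FPKM in PBS. Its groups overlapped, with a difference of 0.09 ± 0.08 on the log2 scale (limma, adjusted p = 0.448). The remaining cytosolic increases were those of the tyrosyl, methionyl and seryl enzymes. Yars averaged 39.1 ± 2.43 FPKM in L-proline and 24.8 ± 2.33 FPKM in PBS (SD, n = 3 each). Mars1 averaged 37.0 ± 2.94 FPKM in L-proline and 24.8 ± 2.05 FPKM in PBS (SD, n = 3 each). Sars averaged 82.9 ± 5.66 FPKM in L-proline and 60.7 ± 3.54 FPKM in PBS (SD, n = 3 each). All of these 10 genes had every L-proline library above every PBS library, a pattern that 16% of all tested genes showed in that direction and 40.1% in either direction.

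**Figure D1:**
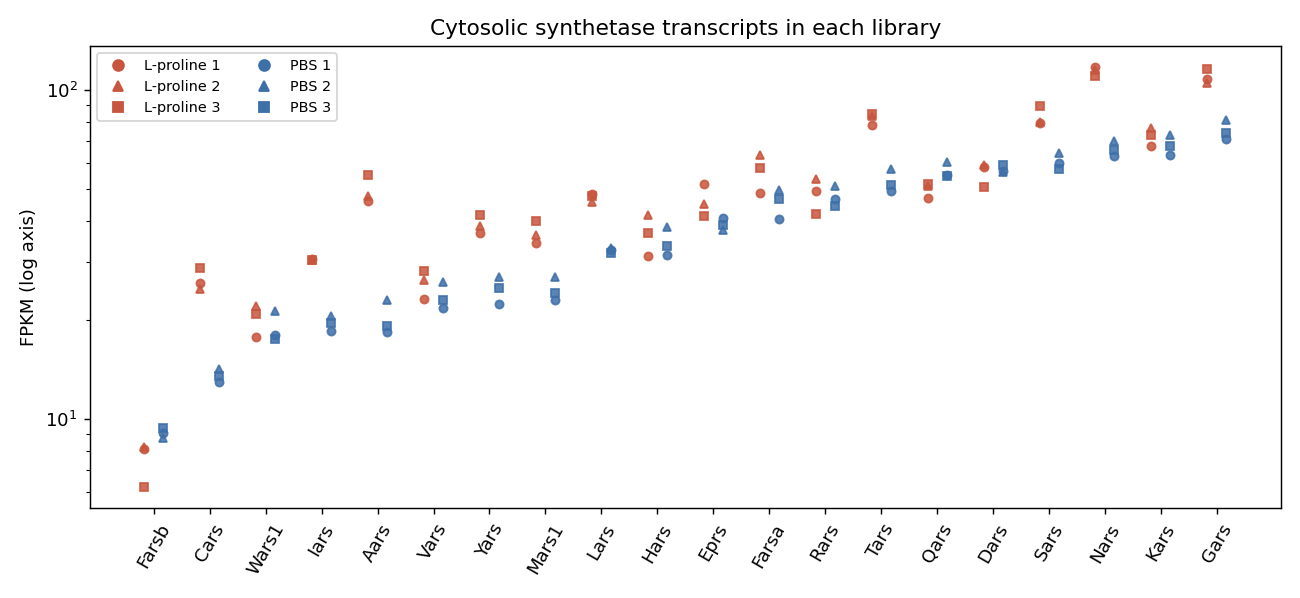
FPKM of the 20 cytosolic synthetase genes on a log axis, ordered by their PBS mean, with 1 point per library (L-proline left in red, PBS right in blue; marker shapes give the replicate number). The points of the 2 groups separate for genes such as Aars (46.1 to 55.3 against 18.5 to 23.0 FPKM) and mix for genes such as Kars and Rars.

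The other 10 cytosolic genes had log2 fold changes between -0.25 and 0.31 and adjusted p-values between 0.0966 and 0.891 (limma). They were the aspartyl (Dars), glutamyl-prolyl (Eprs), phenylalanyl (Farsa and Farsb), histidyl (Hars), lysyl (Kars), glutaminyl (Qars), arginyl (Rars), valyl (Vars) and tryptophanyl (Wars1) enzymes. Eprs, the fused enzyme that charges tRNA with proline as well as glutamate, is the cytosolic member that uses the administered amino acid. It stood at 51.9, 45.0 and 41.3 FPKM in L-proline and 40.9, 37.6 and 38.9 FPKM in PBS. Its L-proline libraries were all above its PBS libraries by a small margin, and it did not pass (log2 fold change 0.22 ± 0.09; limma, adjusted p = 0.127). Farsa and Farsb encode the subunits of one phenylalanyl enzyme and had estimates of opposite sign. Farsa stood at 48.8, 63.6 and 58.0 FPKM in L-proline and 40.6, 49.7 and 46.6 FPKM in PBS, with overlapping groups (log2 fold change 0.31 ± 0.11; limma, adjusted p = 0.0966). Its adjusted p was 0.0195 without L-proline 1. Farsb stood at 8.15, 8.22 and 6.23 FPKM in L-proline and 9.07, 8.80 and 9.44 FPKM in PBS, with every L-proline library below every PBS library (log2 fold change -0.25 ± 0.11; limma, adjusted p = 0.142). The difference between these 2 subunits was not tested. Among all tested genes, 16% had every L-proline library above every PBS library and 24% had every one below.

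Qars, the glutaminyl enzyme, also had every L-proline library below every PBS library, at 47.1, 51.2 and 51.8 FPKM in L-proline and 55.1, 60.7 and 55.0 FPKM in PBS (log2 fold change -0.18 ± 0.07; limma, adjusted p = 0.122). Among all tested genes, 24% had the groups apart in that direction. Wars1, known in human cells as an interferon-induced synthetase, stood at 17.8, 22.1 and 20.9 FPKM in L-proline and 18.1, 21.3 and 17.5 FPKM in PBS. Its groups overlapped (log2 fold change 0.09 ± 0.11; limma, adjusted p = 0.578). A list of 18 tested interferon response genes rose in all 18 cases in the same libraries (limma; 0 fell, also at an unadjusted p under 0.05 and with voom), with log2 fold changes of 0.27 to 2.84. Among all tested genes 7.5% rose. Dars, Hars and Rars had log2 fold changes of -0.04 ± 0.08, 0.08 ± 0.12 and 0.02 ± 0.10.

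**Figure D2:**
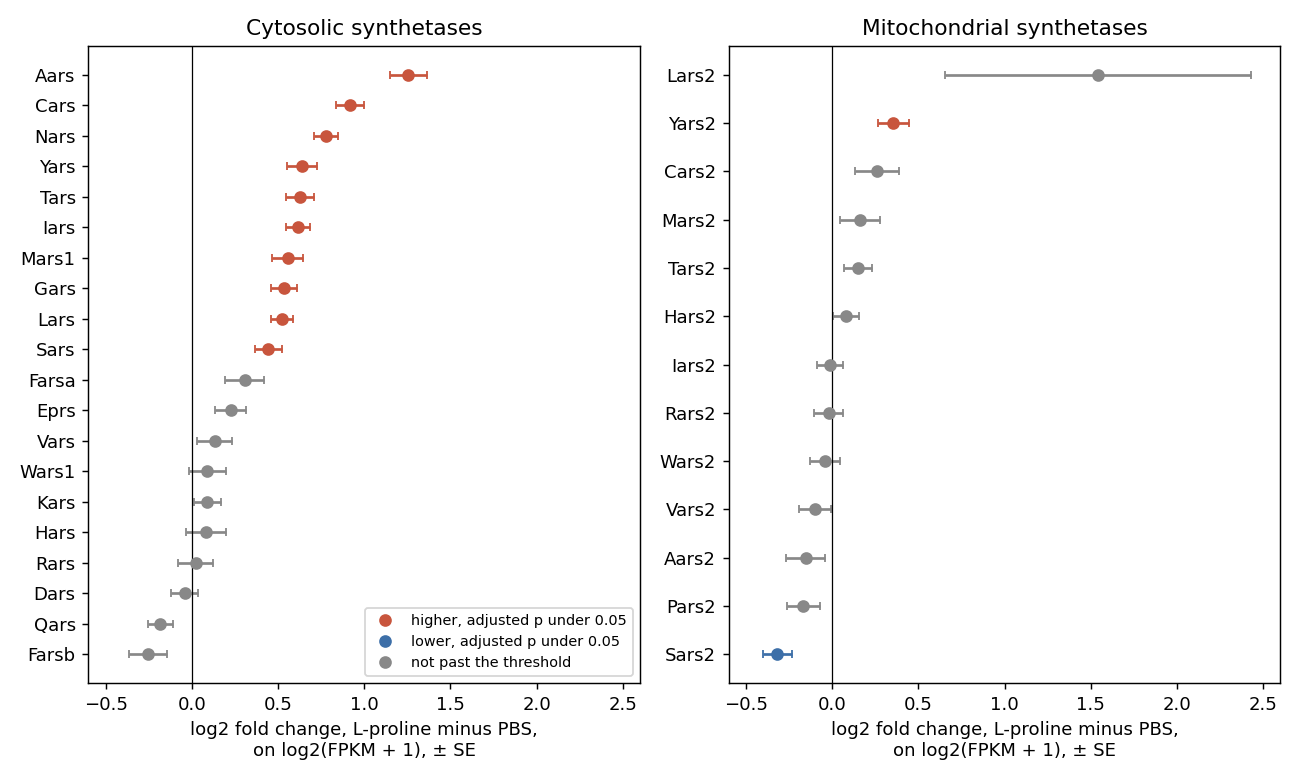
Log2 fold change of L-proline over PBS with its standard error for the 20 cytosolic (left) and the 13 tested mitochondrial genes (right), coloured by limma's call at an adjusted p under 0.05. The 10 called cytosolic genes lie between 0.44 and 1.26 in red; on the right Lars2 has a wide error of 0.89 and Yars2 and Sars2 are the coloured points.

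Of the cytosolic enzymes 8, including Eprs, Iars, Lars and Mars1, are held with the proteins of Aimp1, Aimp2 and Eef1e1 in the multi-synthetase complex, a cytosolic assembly. Within it 3 of 8 enzyme genes rose (Iars, Lars and Mars1), with a median log2 fold change of 0.16 over the 8. Outside it 7 of 12 rose, with a median of 0.49. The difference between these groups was not tested. Among all tested genes 7.5% rose. The 3 scaffold genes did not pass, and none of them did at an unadjusted p under 0.05 or with voom. Aimp1 stood at 59.9, 63.6 and 58.7 FPKM in L-proline and 60.4, 61.9 and 57.6 FPKM in PBS, so its groups overlapped. Eef1e1 had a difference of 0.18 ± 0.08 on the log2 scale (limma, adjusted p = 0.162). By structural class, 5 of 9 class I enzymes (Cars, Iars, Lars, Mars1 and Yars) and 5 of 10 class II enzymes (Aars, Gars, Nars, Sars and Tars) rose, Eprs being left out because it holds a domain of each class.

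Promoter sequence is shown for the genes whose start region held the letters of the C/EBP-ATF response element, a site that ATF4 binds together with C/EBP proteins. Its core was searched as TGATGNAA on both strands, where N is any base, from 250 bases before to 50 bases after the RefSeq gene start (build GRCm38.p6). Sequences matched by symbol were searched for 12 cytosolic and 14 mitochondrial genes; Cars, Hars, Lars, Nars, Rars, Vars, Wars1, Hars2 and Pars2 had no entry. The letters occurred for 4 of the 12 cytosolic genes (Gars, Iars, Tars and Yars) and for 0 of the 14 mitochondrial ones. A gene was counted if any window under its symbol matched. Of 32851 mouse promoter windows of the same length, counted singly and not by gene, 3.97% matched. All 4 were among the 6 searched cytosolic genes whose transcripts rose; Mars1 and Sars rose and had no match. None of the 6 searched cytosolic genes that did not pass had a match. These counts cover only the genes searched. The 30-base windows below are on the gene's strand with the matching letters in capitals, which read as the reverse complement of the motif in all but Yars.
Gars: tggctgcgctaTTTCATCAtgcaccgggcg
Iars: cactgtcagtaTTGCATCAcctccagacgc
Tars: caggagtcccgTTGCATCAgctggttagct
Yars: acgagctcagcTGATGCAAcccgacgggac

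The Gars window is chr6:55037960-55037989 (plus strand, with the first matching base 30 bases before the start), and the Tars window is chr15:11399655-11399684 (minus strand, 15 bases before the start). In Iars (chr13:49682126-49682155, plus strand) and Yars (chr4:129189895-129189924, plus strand) the match begins at base 8 and base 4, counting the gene start as base 1. Iars and Tars share the letters TTGCATCA, and Yars carries the same letters on the other strand, while Gars has TTTCATCA.

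A match of letters is a description of the window and does not show that a factor binds there. In a list of 30 ATF4 and amino acid response genes, 9 of 28 with a promoter sequence held the letters. Of these 9, Nupr1 and Vldlr did not pass (limma, adjusted p = 0.574 and 0.908) and Slc7a11 was not tested. The 28 genes of that list that were tested are not the same 28. Of them 20 rose and 1 fell, with a median log2 fold change of 0.63. Among all tested genes 7.5% rose and 12.1% fell. Mthfd2, a mitochondrial enzyme of one-carbon metabolism, averaged 39.2 ± 4.61 FPKM in L-proline and 10.5 ± 0.738 FPKM in PBS (SD, n = 3 each; limma, adjusted p = 6.84e-05). Chac1, which breaks down glutathione, rose by 1.86 ± 0.11 on the log2 scale (limma, adjusted p = 6.84e-05). Atf4 itself stood at 218, 212 and 239 FPKM in L-proline and 109.7, 131 and 113 FPKM in PBS, with no overlap (log2 fold change 0.92 ± 0.09; limma, adjusted p = 0.000533).

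The mitochondrial synthetase transcripts were lower in level and mostly did not pass. Leaving out Lars2, their mean levels ran from 0.459 to 15.7 FPKM over all libraries, against 8.32 to 92.5 FPKM for the cytosolic genes. Of the 16, 13 reached a mean of 1 FPKM and were tested; 1 rose (Yars2) and 1 fell (Sars2), and 11 did not pass. These are 7.69% higher and 7.69% lower, near the shares of all tested genes (7.5% higher and 12.1% lower). The median log2 fold change of the 13 was -0.01, against -0.06 over all tested genes and 0.37 for the cytosolic genes; the difference between the sets was not tested. Leaving out Lars2, the 10 uncalled genes had log2 fold changes between -0.17 and 0.26. Because 1 is added to each FPKM value before the logarithm, fold changes of genes this low are understated. Counting error also weighs more here, since a library held as few as 135 fragments of Pars2, the prolyl enzyme.

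Yars2, the mitochondrial tyrosyl enzyme, stood at 7.96, 9.53 and 8.07 FPKM in L-proline and 6.34, 6.44 and 6.49 FPKM in PBS. It rose by 0.36 ± 0.09 on the log2 scale (limma, adjusted p = 0.0282), so both tyrosyl genes were higher in L-proline. The call was lost without L-proline 2 (adjusted p = 0.0687), PBS 1 (0.105), PBS 2 (0.0715) or PBS 3 (0.107). Sars2, the mitochondrial seryl enzyme, stood at 1.88, 1.75 and 1.71 FPKM in L-proline and 2.57, 2.41 and 2.42 FPKM in PBS. It fell by 0.32 ± 0.08 on the log2 scale (limma, adjusted p = 0.0319), opposite to the cytosolic Sars. That call was lost with median-of-ratios scaling (adjusted p = 0.0515), with quantile normalization (0.125) and without L-proline 2 (0.0769), L-proline 3 (0.0669), PBS 1 (0.134), PBS 2 (0.0735) or PBS 3 (0.117).

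Ears2, Fars2 and Nars2 averaged under 1 FPKM and were not tested. Ears2, the mitochondrial glutamyl enzyme, stood at 1.09, 1.19 and 1.01 FPKM in L-proline and 0.562, 0.759 and 0.667 FPKM in PBS, from 303, 317 and 283 fragments in L-proline and 160, 207 and 186 in PBS. Every L-proline library lay above every PBS library, and with no filter on low values its log2 fold change was 0.34 ± 0.06 (limma, adjusted p = 0.0176). Among all tested genes, 16% had the groups apart in that direction and 24% in the other. Fars2 and Nars2 had overlapping groups, at means of 0.95 and 0.464 FPKM in L-proline and 0.907 and 0.454 FPKM in PBS. Pars2, the mitochondrial enzyme for proline, stood at 1.44, 1.25 and 1.69 FPKM in L-proline and 1.76, 1.76 and 1.73 FPKM in PBS. All 3 L-proline libraries were below PBS, and it did not pass (log2 fold change -0.17 ± 0.10; limma, adjusted p = 0.252).

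Lars2, the mitochondrial leucyl enzyme, stood apart in 1 library. It was 37.5, 53.2 and 605 FPKM in L-proline 1, 2 and 3, against 42.3, 31.7 and 35.0 FPKM in PBS 1, 2 and 3. The value in L-proline 3 came from 98394 fragments, 0.268% of that library, where the other 5 libraries held 5036 to 8221. It was 16.1 times the median of the other 5. With all libraries the log2 fold change was 1.54 ± 0.89 (limma, adjusted p = 0.25), and without L-proline 3 it was 0.30 ± 0.17 (adjusted p = 0.275). Lars2 was the only tested gene of 10500 whose value plus 1 in 1 library was over 3 times that in each of the other 5; the next gene in L-proline 3, Lenep, was 1.62 times the next library. The 13 mitochondrially encoded transcripts summed to 22439, 20954 and 13374 FPKM in L-proline 1, 2 and 3, against 14320, 14092 and 15578 FPKM in PBS, so L-proline 3 had the lowest sum of the 6 libraries. The mitochondrial ribosomal RNAs mt-Rnr1 and mt-Rnr2 had no row and are not in this sum. The part of mitochondrially encoded RNA in the Lars2 value was not tested. The 10 cytosolic increases passed the threshold without L-proline 3 as well.

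**Figure D3:**
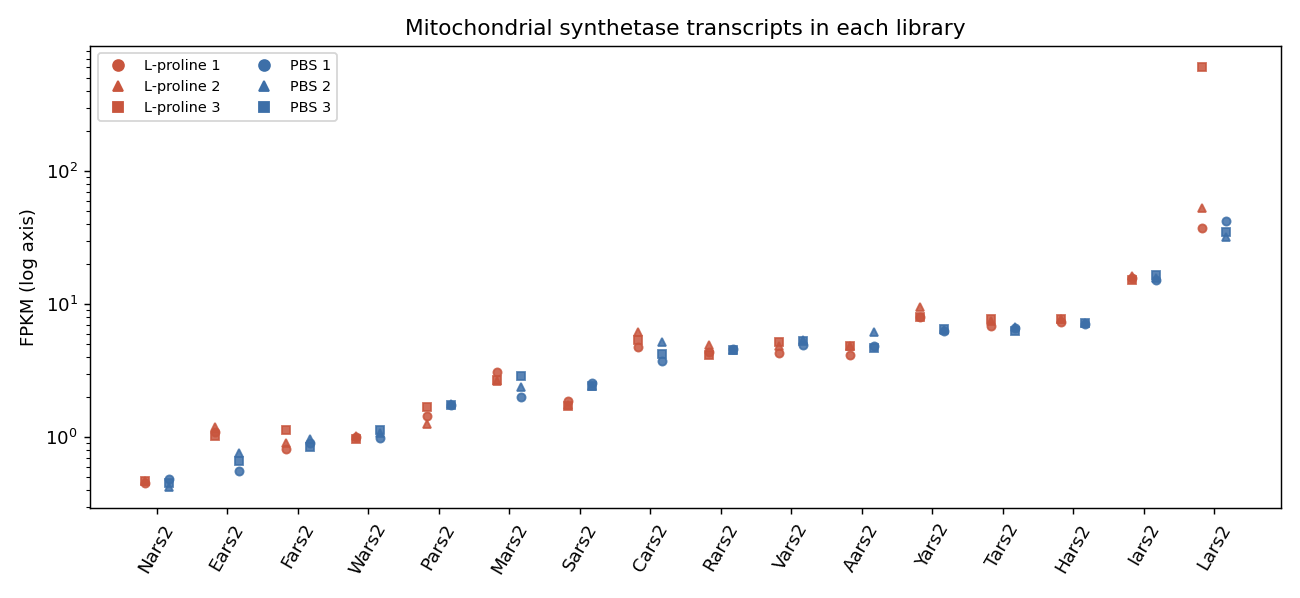
FPKM of the 16 mitochondrial synthetase genes on a log axis, ordered by their PBS mean, with 1 point per library (L-proline left in red, PBS right in blue; marker shapes give the replicate number). The red square of L-proline 3 for Lars2, at 605 FPKM, lies far above all other points.

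The cytosolic and mitochondrial genes for the same amino acid were also set against each other within each library, as the log2 ratio of their FPKM values, for the 13 amino acids with 1 gene of each kind. With 3 libraries against 3 an exact permutation test cannot give a p below 0.1, so the ratios are given as values. The mean ratio was higher in L-proline for 11 of the 13 amino acids and lower for histidine and leucine. Among those 11, the libraries of the groups overlapped for methionine, tyrosine, tryptophan and arginine. The alanyl pair moved most: the log2 ratio of Aars to Aars2 was 3.48, 3.30 and 3.52 in L-proline and 1.92, 1.91 and 2.03 in PBS, so Aars was 10.8 times as abundant as Aars2 in L-proline and 3.87 times in PBS. For serine the log2 ratio was 5.39, 5.52 and 5.71 in L-proline and 4.55, 4.74 and 4.57 in PBS, where Sars rose and Sars2 fell. For asparagine it was 8.02, 7.94 and 7.87 in L-proline and 7.02, 7.38 and 7.18 in PBS, the widest gap in FPKM between any pair. This gap depends on gene length, which was recovered as 15488 bases for Nars2 and 2605 for Nars. In fragments the seryl gap was wider: L-proline 1 held 10767 of Sars and 158 of Sars2, against 11242 of Nars and 257 of Nars2. PBS 1 held 8330 and 220, against 6158 and 283.

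For isoleucine the log2 ratio averaged 0.96 ± 0.06 in L-proline and 0.31 ± 0.07 in PBS (SD, n = 3 each). For tyrosine, where both genes rose, it averaged 2.20 ± 0.17 in L-proline and 1.94 ± 0.12 in PBS (SD, n = 3 each), with overlapping libraries. For histidine it averaged 2.26 ± 0.16 in L-proline and 2.27 ± 0.13 in PBS (SD, n = 3 each), and for arginine 3.43 ± 0.09 in L-proline and 3.38 ± 0.11 in PBS (SD, n = 3 each). The leucine ratio was 0.37, -0.22 and -3.66 in L-proline 1, 2 and 3 and -0.38, 0.06 and -0.12 in PBS, its low value in L-proline 3 being the library with the high Lars2 level. L-proline 1 lay above the PBS libraries and L-proline 2 among them.

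**Figure D4:**
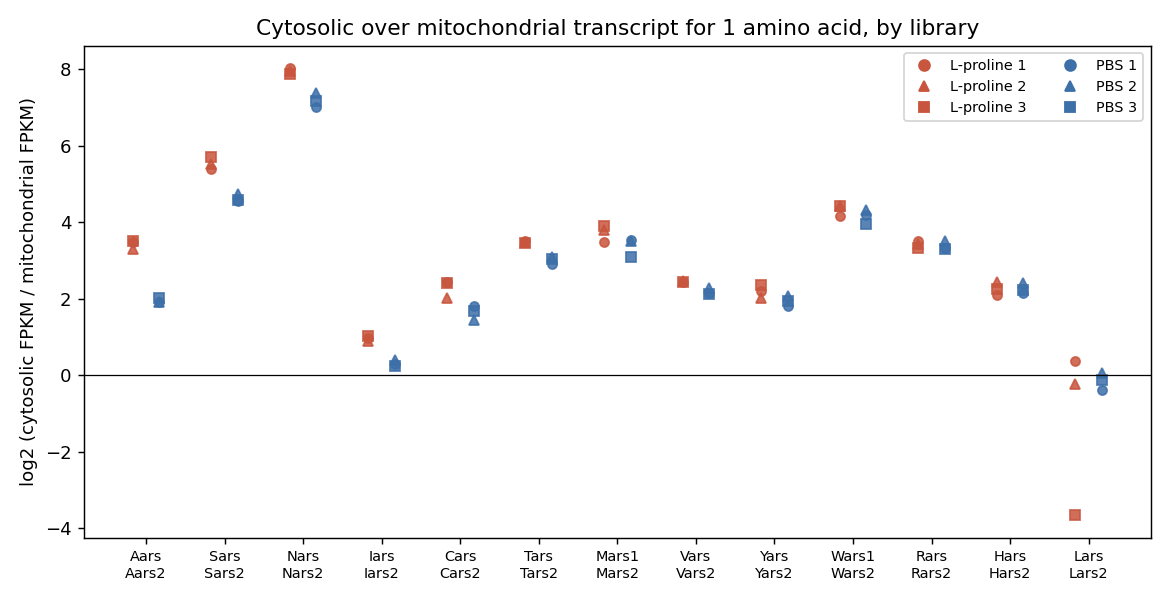
Log2 ratio of cytosolic to mitochondrial FPKM for 13 amino acids, with 1 point per library (L-proline left in red, PBS right in blue), ordered by the difference between group means. The alanyl pair at the left lies at 3.30 to 3.52 in L-proline and 1.91 to 2.03 in PBS, and the leucyl pair at the right has 1 low point at -3.66.

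Summed over the 20 cytosolic genes, the level was 1009, 1055 and 1053 FPKM in L-proline and 755, 841 and 778 FPKM in PBS. The lowest L-proline sum was above the highest PBS sum, and the means stood at a ratio of 1.31. Summed over the 15 mitochondrial genes other than Lars2, it was 65.1, 71.1 and 67.9 FPKM in L-proline and 62.5, 67.0 and 65.4 FPKM in PBS. These groups overlapped, with a ratio of 1.05.

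Other genes that serve tRNA and translation were counted in the same way, and their differences from the synthetases were not tested. Of 27 tested genes of tRNA maturation and export, 3 rose (11.1%) and 2 fell (7.41%), near the 7.5% and 12.1% of all tested genes, with a median log2 fold change of 0.06. Among them Xpot, the nuclear exporter of tRNA, stood at 24.4, 23.2 and 23.2 FPKM in L-proline and 15.1, 16.1 and 16.1 FPKM in PBS, an increase of 0.55 ± 0.07 on the log2 scale (limma, adjusted p = 0.00182). Tsen54, a subunit of the tRNA splicing endonuclease, rose by 0.48 ± 0.11 on the log2 scale, and Lage3, a member of the complex that modifies adenosine next to the anticodon, fell by 0.83 ± 0.10. Of 24 cytosolic translation factors, 2 rose, Eif1 by 0.26 ± 0.07 and Eef1g by 0.31 ± 0.09 on the log2 scale, and 0 fell (limma; 3 higher and 2 lower at an unadjusted p under 0.05; 2 and 0 with voom). Their median log2 fold change was 0.05.

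Of 21 tested mitochondrial translation factors and tRNA-modifying enzymes, 3 rose (14.3%) and 0 fell (limma), against 7.5% and 12.1% of all tested genes. At an unadjusted p under 0.05, 3 were higher and 2 lower, and voom called 3 higher and 0 lower. Their median log2 fold change was 0.04. Trmu, which thiolates mitochondrial tRNAs, stood at 7.44, 6.42 and 8.89 FPKM in L-proline and 4.54, 4.58 and 4.53 FPKM in PBS (log2 fold change 0.62 ± 0.11; limma, adjusted p = 0.00795). Gatb, a subunit of the amidotransferase that completes mitochondrial glutaminyl-tRNA, stood at 2.72, 3.15 and 2.81 FPKM in L-proline and 2.03, 1.72 and 2.16 FPKM in PBS. Its libraries did not overlap between groups (log2 fold change 0.39 ± 0.10; limma, adjusted p = 0.0266). Ears2, described above, makes the glutamyl-tRNA on which that enzyme acts. Gfm2, a factor for ribosome recycling, rose by 0.33 ± 0.08 on the log2 scale. Of 6 genes for eIF2α kinases and their sensing, 0 passed (limma; 2 higher and 1 lower at an unadjusted p under 0.05; 0 and 0 with voom). Eif2ak2, the kinase PKR that binds double-stranded RNA, stood at 47.5, 34.5 and 24.8 FPKM in L-proline and 23.4, 16.5 and 22.1 FPKM in PBS (log2 fold change 0.72 ± 0.22; limma, adjusted p = 0.0543). Eif2ak1, the heme-regulated kinase, stood at 13.1, 14.8 and 13.6 FPKM in L-proline and 11.4, 12.0 and 11.9 FPKM in PBS (log2 fold change 0.22 ± 0.08; limma, adjusted p = 0.0834). For both, every L-proline library was above every PBS library, a pattern that 16% of all tested genes showed in that direction. Eif2ak4, the kinase GCN2 that binds uncharged tRNA, averaged 8.54 ± 2.12 FPKM in L-proline and 12.1 ± 2.49 FPKM in PBS (SD, n = 3 each; log2 fold change -0.46 ± 0.19; limma, adjusted p = 0.119), with overlapping groups.

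**Figure D5:**
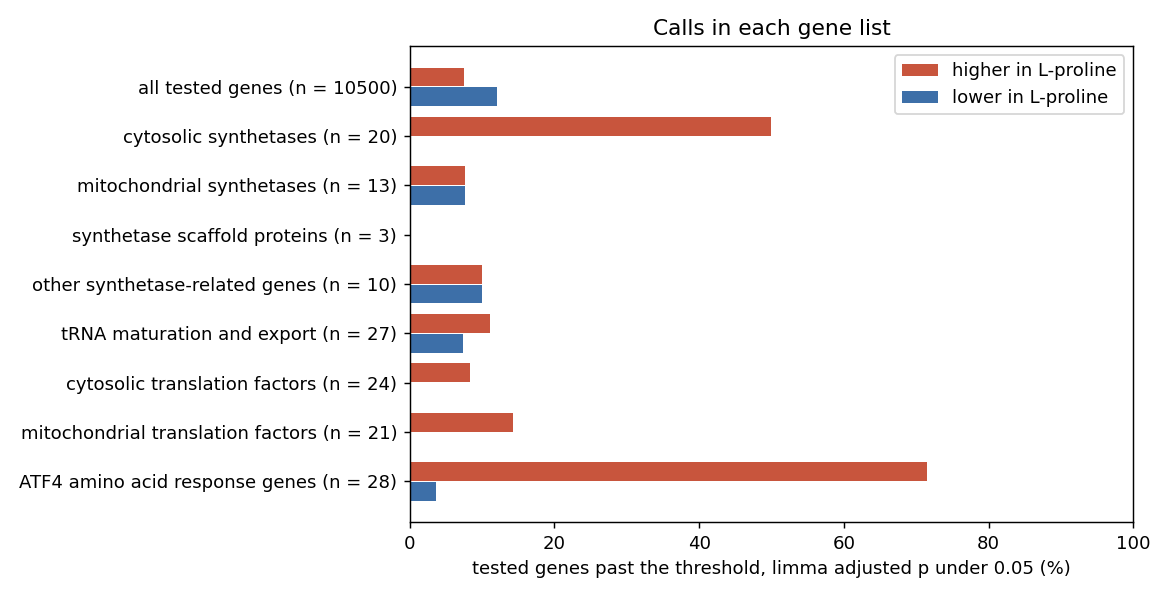
Percent of tested genes called higher (red) or lower (blue) in L-proline in each list, with the number tested beside its name. The share called higher is 50% for the cytosolic synthetases and 71.4% for the ATF4 list, against 7.5% of all tested genes.

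The split of calls over all genes depended on the scaling. It was 788 higher and 1268 lower as deposited, 1003 and 966 after median-of-ratios scaling, and 1079 and 1015 after quantile normalization. The lists and members were chosen with earlier results of these data known, so the counts describe these libraries.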

How the data were processed

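The authors deposited 1 table of FPKM values for 6 libraries, per the file headers. Per the labels' protocols, RNA from left ventricle went into NEBNext Ultra libraries (1.5 µg each) sequenced on an Illumina NovaSeq. HISAT2, HTSeq 0.13.5 and GRCm39 appear, with no role, among the submitters' processing notes. How the table's genes were selected is unknown here. The authors' scaling to the library total makes each value depend on abundant genes.

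Groups and replicate numbers came from the sample titles. log2(FPKM + 1) was tested with limma 3.58.1 in R 4.3.3 (eBayes with a mean-variance trend, two-sided) for genes with a mean of at least 1 FPKM, with Benjamini-Hochberg adjustment over all 10500 and a threshold of 0.05. A gene is said to rise or fall past it. Whole fragments were recovered for 14407 of 14408 genes, from library totals solved on 13 mitochondrially encoded genes and the smallest gene length that gave whole numbers within 0.01. A few genes can come out at a fraction of their true number. A gene of 1 kb with no fragment could lie at up to 0.08 to 0.0857 FPKM (3 fragments, counting error only). Replicates were separate beyond counting noise (chi-square over degrees of freedom 7.81 to 78.8). The steps were tested on simulated data.

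Described with values for every library were the 6 cytosolic genes with the smallest p, mitochondrial genes past the threshold, Lars2, Gars and Kars, and up to 3 genes of other lists with the smallest p; further genes were picked with their values in view. Members and lists were chosen with earlier results of these data known. There are 14 alternatives. No genome of the notes' build was used; promoter sequences are RefSeq's on GRCm38.p6, and that of 1 cytosolic gene is not reported here. Protein sequences were not used here.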

Additional observations from a re-analysis of the deposited data

How the results depend on the processing

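The 10 cytosolic increases passed the threshold in all 14 alternatives, and the number called higher was 10 or 11, the extra gene being Farsa (adjusted p = 0.0463 with quantile normalization, 0.0171 with the replicate block, 0.0195 without L-proline 1). The cytosolic median log2 fold change was 0.43 with median-of-ratios scaling and 0.34 to 0.44 with 1 library left out. The mitochondrial median, near 0, was 0.15 at a mean of at least 5 FPKM, 0.0398 with median-of-ratios scaling, 0.0802 after quantile normalization and -0.0409 to 0.0217 with 1 library left out. With no filter 2 mitochondrial genes were higher, the added one being Ears2. With 1 library left out, 0 to 1 were higher and 0 to 1 lower. The number lower was 0 at a mean of at least 5 FPKM, where Sars2 is not tested, 0 with median-of-ratios scaling and 0 after quantile normalization.

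Some genes that did not pass changed the sign of their log2 fold change. With median-of-ratios scaling it was 0.0131 for Dars, 0.0398 for Iars2 and 0.024 for Rars2. After quantile normalization it was 0.0372 for Iars2, 0.0802 for Rars2 and 0.0377 for Wars2. With 1 library left out it ran from -0.0793 to 0.0282 for Dars, from -0.0134 to 0.1868 for Hars, from -0.0553 to 0.1197 for Rars, from -0.0409 to 0.0217 for Iars2 and from -0.0803 to 0.0208 for Rars2. The causes were not tested.

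Over all genes, leaving out 1 library gave 362 to 965 higher and 508 to 1797 lower; without PBS 1 there were 384 and 584, without PBS 2 588 and 844, and without PBS 3 362 and 508. The replicate numbers matched the libraries only in part: the correlation of same-numbered deviations was 0.651, 0.416 and -0.348. L-proline 1 correlated best with PBS 1 and L-proline 2 with PBS 2, while L-proline 3 correlated best with PBS 2 (0.525). These values do not settle whether the numbers pair the libraries. With the replicate block 908 genes were higher and 1475 lower, and 11 cytosolic genes were higher. Low fragment numbers limit what can be seen for mitochondrial genes.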
